A study of Mus musculus with 4 samples.

Results

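Cold-inducible RNA-binding genes (Cirbp, Rbm3) and heat shock genes (Hspa1a, Hspa1b, Hspa8, Hsp90aa1, Hsph1, Dnajb1, Hspd1, Hspe1) were followed through the cell types of the ChAT-eGFP+ fraction of inguinal white fat. The 10 genes were chosen by name, were taken by symbol from the 31053 genes of the matrices, and all 10 were found. The question was whether the cells carry a direct signature of temperature, with cold-induced genes higher and heat shock genes changed after cold housing. All 4 libraries came from male ChATBAC-eGFP mice, in which a bacterial artificial chromosome drives enhanced green fluorescent protein from the choline acetyltransferase locus, so that green cells report the transgene and not the protein that makes acetylcholine. The mice entered the climate chamber at 5 weeks of age, were housed at 30 °C for 3 weeks, and then spent either 4 more hours at 30 °C or 4 h at 4 °C, the latter after a stay at room temperature that the 30 °C mice did not share. Each temperature had 2 libraries, each from the pooled fat of 4 mice, digested warm with collagenase and dispase and sorted for live green cells. A library is thus the replicate, and the stay at room temperature and the 4 h at 4 °C cannot be told apart.

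Cirbp and Rbm3 are RNA-binding proteins whose transcripts rise when cultured mammalian cells are cooled mildly and fall when they are warmed. Heat shock genes behave in the opposite way. When damaged proteins occupy the chaperones, heat shock factor 1 is freed, which binds heat shock elements and turns on Hsp70, Hsp90, Hsp110 and Hsp40 chaperones, while the same factor also answers oxidative and proteotoxic stress. Cold acts on adipose tissue chiefly through sympathetic nerves, and the inguinal depot lies under the skin.

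The deposited libraries held 6272 to 6883 cells, and 21253 of 26654 cells were kept, with a median of 7520 to 8068 unique molecular identifiers (UMIs, counted molecules) per cell in each library. Libraries shared 10 to 18 cell barcodes per pair. Cells were placed by marker genes into 11 cell types, which took 20089 of the kept cells, and each type carried its own markers above those of other lineages. The T cell markers, for example, summed to between 4313 and 4822 UMIs per 1000000 in alpha-beta T cells and to at most 85.4 in B cells, and the macrophage markers to between 19211 and 20739 in macrophages and at most 48.0 in alpha-beta T cells. The gap was narrower in ILC2, the group 2 innate lymphoid cells, with 1201 to 1594 for their own markers and 368 to 528 for T cell markers. The placement used these same markers, so such sums follow from it and are no separate check of identity. Group sizes ran from 8403 B cells and 5943 alpha-beta T cells over 1025 macrophages to 126 stromal and 97 lymphatic endothelial cells. Macrophages numbered 182 and 196 in the 30 °C libraries but 474 and 173 in the 4 °C libraries, and gamma-delta T cells numbered only 30 in replicate 2 at 4 °C. Lymphatic endothelial cells, with 12 and 18 cells at 4 °C, were not tested and are given by their values. In 1 dendritic cell sum, replicate 2 at 30 °C, plasma cell markers reached 3882 UMIs per 1000000 against 63.7 to 110 in the other libraries.

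The UMIs of each cell type were added up within a library, and levels are given as UMIs of a gene per 1000000 UMIs of that cell type in that library (CPM). Changes are log2 fold changes of 4 °C minus 30 °C from edgeR's quasi-likelihood test with TMM scaling, with the standard error (SE) and the p adjusted by Benjamini-Hochberg over all genes tested in that cell type. A gene was called when the adjusted p was below 0.05. The cell types are sums from the same 4 libraries, so a pattern seen in several of them is not repeated independently. CPM uses totals alone, and scaling to totals lifted the median log2 fold change of all genes in B cells to 0.10, so that small rises in CPM can vanish on the TMM scale. Both cold libraries lay above both warm ones in CPM for 45.1% of the genes tested in B cells, 33.4% in alpha-beta T cells and 32.9% in macrophages, and below them for 16.2%, 20.9% and 25.8%.

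In B cells 4 of the 10 genes were called, where 13.4% of all genes tested were. Of the 4, 2 were higher at 4 °C (6.51% of all genes were) and 2 lower (6.91%). Alpha-beta T cells had 5 calls at a background of 7.03%, 3 higher (3.11%) and 2 lower (3.92%). ILC2, the group 2 innate lymphoid cells, also had 5 at 6.70%, 2 higher (2.75%) and 3 lower (3.95%). Macrophages had 2 calls at a background of 17.2%, both lower (8.25%), and cycling T cells 2 at 7.60%, both lower (4.08%). Gamma-delta T cells had 2 at 2.93%, both lower (1.61%), and dendritic cells 1 of 9 tested at 2.07%, lower (0.673%). In cycling B cells none of the 10 was called and neither was any of the 10012 genes tested, although 513 had an unadjusted edgeR p below 0.05 and DESeq2 called 27 genes, Cirbp among them. Plasma cells gave no call among the 10 genes (0.648% of all genes) and stromal cells none among the 8 that passed the filter on low counts (0.404%). The median change over the 10 genes was 0.04 in B cells, 0.08 in alpha-beta T cells and -0.05 in macrophages, against -0.01, 0.00 and 0.00 over all genes tested there. Each call of Cirbp and Rbm3 was lower at 4 °C. The chaperone calls were higher at 4 °C, except that of Hspa1b in ILC2, which was lower.

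**Figure D1:**
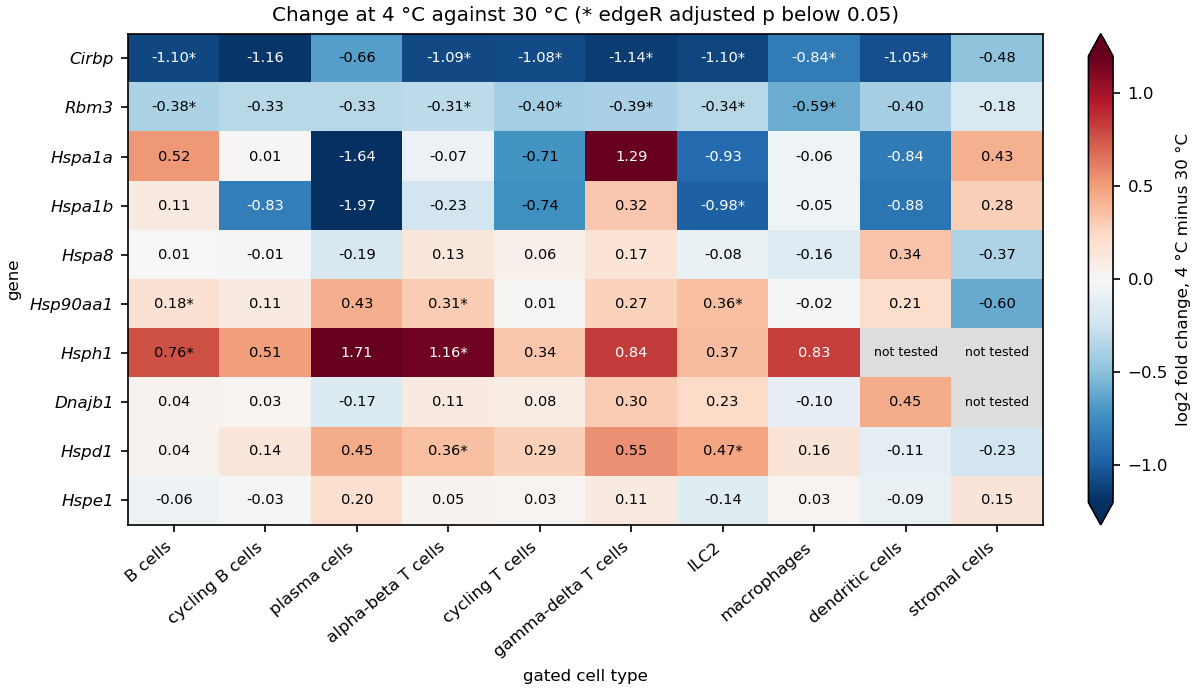
Log2 fold change at 4 °C against 30 °C for each of the 10 genes (rows) in each of the 10 tested cell types (columns), with red for higher and blue for lower at 4 °C, colors saturating beyond 1.2, and an asterisk for an edgeR adjusted p below 0.05. The Cirbp and Rbm3 rows are negative in every cell type, from -1.16 to -0.48 and from -0.59 to -0.18, while Hsph1 is positive in the 8 cell types where it was tested. In plasma cells Hsph1 passed the filter on low counts only through the cold libraries. There Hspa1a (-1.64) and Hspa1b (-1.97) passed it only through the 30 °C libraries. The filter thus favored the signs of these 3 values, which carry no weight.

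Cirbp was lower, not higher, after cold. In B cells Cirbp stood at 291 and 265 CPM in the warm libraries and at 146 and 134 CPM in the cold ones. Both cold libraries lay well below both warm ones (log2 fold change -1.10, SE 0.07, edgeR adjusted p = 1.98e-05). Alpha-beta T cells had 331 and 297 CPM at 30 °C against 157 and 149 CPM in the cold, again without overlap (-1.09, SE 0.08, edgeR adjusted p = 2.75e-05). ILC2 gave 330 and 273 CPM against 150 and 143 CPM (-1.10, SE 0.11, edgeR adjusted p = 1.10e-05). The estimates in these 3 lymphoid types thus lay between -1.10 and -1.09.

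Macrophages carried less Cirbp at both temperatures, 163 and 127 CPM at 30 °C against 94.2 and 66.3 CPM in the cold, and it fell there by 0.84 (SE 0.16, edgeR adjusted p = 0.00500). Leaving out either 4 °C library ended that call together with every other call in macrophages, so the loss is not particular to Cirbp. The change stayed between -1.16 and -0.66 over every setting tried. Cirbp was also called lower in cycling T cells (-1.08), gamma-delta T cells (-1.14) and dendritic cells (-1.05, a call lost without replicate 1 at 4 °C). In cycling B cells it was 225 and 247 CPM at 30 °C against 118 and 108 CPM in the cold (-1.16, SE 0.13, edgeR adjusted p = 0.0763), a value that passed the threshold with DESeq2, with no filter on low counts, once cells of over 5000 genes were let in, with the replicate number as a block, and without either 30 °C library. Plasma cells held 75.1 and 76.0 against 57.8 and 39.8 CPM (-0.66, edgeR adjusted p = 0.243). In stromal cells the libraries overlapped, with 184 and 90.6 CPM at 30 °C against 110 and 80.4 CPM in the cold. Both 4 °C libraries were below both 30 °C libraries in 9 of the 10 tested cell types, and in the untested lymphatic endothelial cells, with 194 and 168 against 148 and 127 CPM. These cell types share the same libraries and are not separate repeats. The share of all genes below is given above for B cells, alpha-beta T cells and macrophages only.

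Cirbp lies on chromosome 10 at 80165985 to 80172786 on the plus strand (GRCm38, GENCODE M21). Its promoter is shown because a short octamer, TCCCCGCC, has been linked to induction of Cirbp by mild cold. RefSeq gives 2 start sites on GRCm38.p6, and the 250 bases before the first follow, 5′ to 3′ (chr10:80167589-80167838, plus strand), with the octamer in capitals.
Cirbp upstream: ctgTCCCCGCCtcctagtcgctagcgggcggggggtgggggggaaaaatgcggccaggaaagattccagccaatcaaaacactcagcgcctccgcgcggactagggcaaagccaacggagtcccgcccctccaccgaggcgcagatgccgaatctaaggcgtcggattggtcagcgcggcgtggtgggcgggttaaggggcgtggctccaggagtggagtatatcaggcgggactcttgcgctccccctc
The octamer, sought on both strands, begins 247 bases before this start site and is found in 5.382% of 32851 RefSeq promoter windows of 300 bases. Neither Cirbp window held a heat shock element of 2 units, written GAANNTTC or TTCNNGAA and sought on both strands, which 15.06% of the windows hold. For Rbm3, Hspa8 and Hsp90aa1 no promoter sequence is shown.

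Rbm3, the other cold-inducible RNA-binding gene, on chromosome X at 8138975 to 8145880 on the minus strand, was lower at 4 °C as well, by a smaller amount. In macrophages it went from 783 and 717 CPM at 30 °C to 530 and 492 CPM at 4 °C (-0.59, SE 0.09, edgeR adjusted p = 0.00107). The macrophage groups did not overlap, and this was the largest of the Rbm3 changes over the 10 tested cell types. In B cells it was 1251 and 1257 CPM at 30 °C against 1060 and 1009 CPM in the cold (-0.38, SE 0.05, edgeR adjusted p = 0.000809). Alpha-beta T cells gave 1334 and 1310 CPM against 1167 and 1035 CPM (-0.31, SE 0.06, edgeR adjusted p = 0.0141). Rbm3 was also called lower in cycling T cells (-0.40), gamma-delta T cells (-0.39) and ILC2 (-0.34), so that 6 of 10 tested cell types passed the threshold. In cycling B cells (-0.33), plasma cells (-0.33) and dendritic cells (-0.40) both 4 °C libraries lay below both at 30 °C without a call, and in stromal cells the groups overlapped (-0.18). The macrophage call was lost without either 4 °C library, as was every other call in that cell type. The alpha-beta T cell and gamma-delta T cell calls were lost without either 30 °C library, the former also with no filter on low counts. The ILC2 call was lost with DESeq2 and without replicate 2 at 30 °C.

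**Figure D2:**
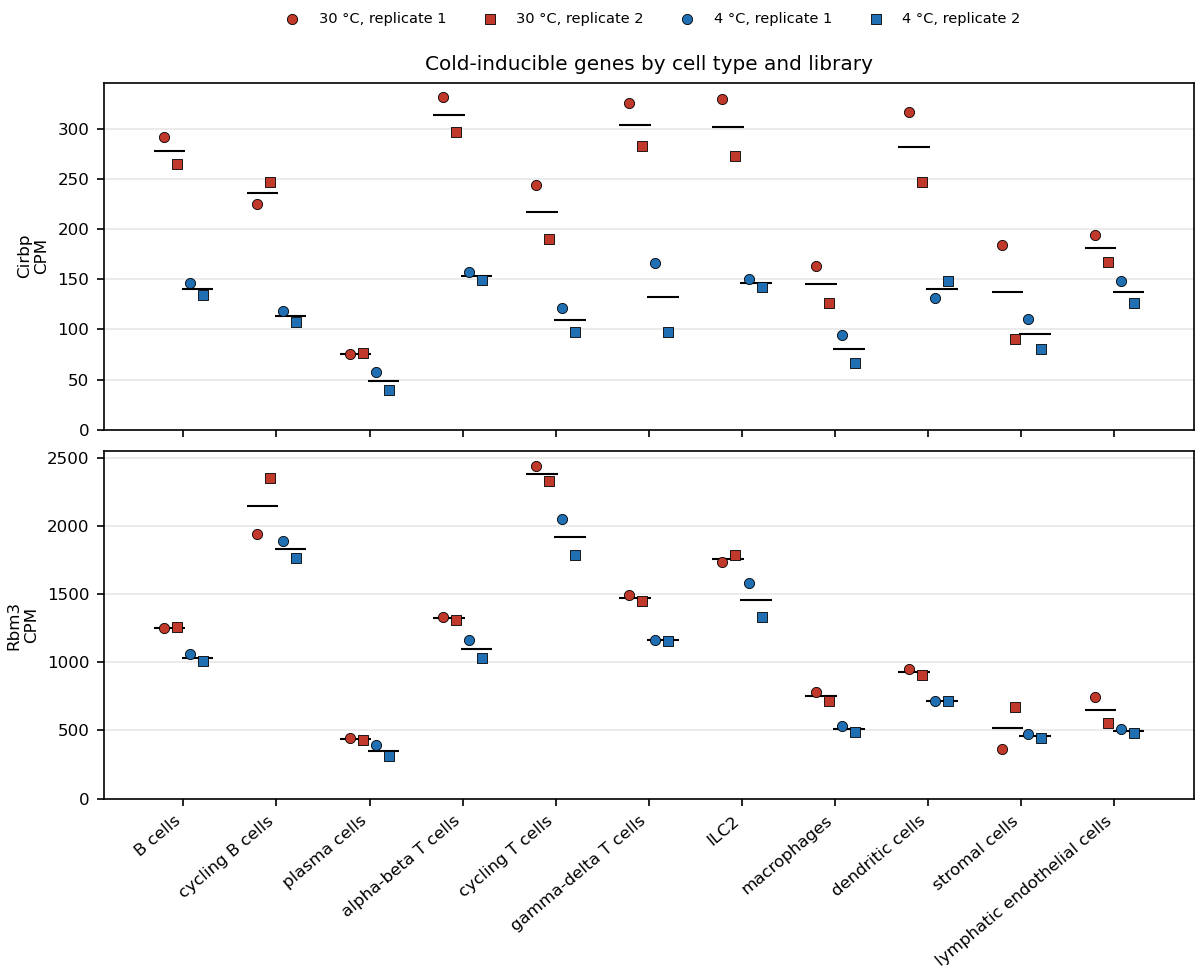
Cirbp (top) and Rbm3 (bottom) in CPM, on axes from 0, in each of 11 cell types, with 1 point per library, red for 30 °C and blue for 4 °C, circles for replicate 1 and squares for replicate 2, and short bars for group means. Both blue points lie below both red points in 9 of the 10 tested cell types for each gene, the exception being stromal cells. The cell types share the same libraries and are not separate repeats.

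Of the called changes of the chaperones, that of Hsph1 in alpha-beta T cells was the largest. Hsph1 encodes Hsp110, which exchanges nucleotide on Hsp70, and lies on chromosome 5 at 149614287 to 149636376 on the minus strand. Hsph1 in alpha-beta T cells was 10.3 and 11.5 CPM at 30 °C against 20.0 and 30.7 CPM in the cold (log2 fold change 1.16, SE 0.20, edgeR adjusted p = 0.00692). In B cells it was 8.17 and 8.17 CPM at 30 °C against 13.1 and 16.6 CPM in the cold (0.76, SE 0.12, edgeR adjusted p = 0.00408). The groups stood apart in both, with replicate 2 at 4 °C the highest library in each. In macrophages it was 10.8 and 6.06 CPM against 15.2 and 15.8 CPM, groups that did not overlap (0.83, SE 0.32, edgeR adjusted p = 0.107). The estimate was positive in the 8 cell types where Hsph1 was tested, from 0.34 in cycling T cells to 1.71 in plasma cells, and it was called in 2 of them. In plasma cells Hsph1 had 3 and 7 UMIs at 30 °C against 12 and 19 in the cold. It passed the filter on low counts there only through the cold libraries, which favored a positive sign, so that sign carries no weight. In gamma-delta T cells the cold libraries lay on either side of the warm ones, with 9.43 and 14.8 CPM at 30 °C against 29.0 and 6.72 CPM in the cold, the last from 2 UMIs, and the Hsph1 estimate of 0.84 turned to -0.90 without replicate 1 at 4 °C. Over the settings run Hsph1 ranged from 0.06 to 0.77 in cycling T cells and from 0.75 to 2.72 in plasma cells. The filter on low counts removed it in dendritic and stromal cells. The B cell call was lost without replicate 2 at 30 °C, and the alpha-beta T cell call without either 30 °C library and with no filter on low counts. Once cells of over 5000 genes were let in, Hsph1 was also called in cycling T cells (0.77) and in ILC2 (0.97).

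The Hsph1 promoter is shown because Hsph1 was the chaperone gene with the largest called change. The 250 bases before the first of its 2 RefSeq start sites follow, 5′ to 3′ (chr5:149636337-149636586, minus strand), with heat shock elements of 2 units in capitals.
Hsph1 upstream: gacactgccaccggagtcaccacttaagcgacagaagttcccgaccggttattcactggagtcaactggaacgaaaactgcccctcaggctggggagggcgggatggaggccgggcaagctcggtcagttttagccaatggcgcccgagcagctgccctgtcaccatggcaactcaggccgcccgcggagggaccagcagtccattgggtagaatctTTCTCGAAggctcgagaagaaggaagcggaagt
The window of 300 bases holds 3 such elements, 1 before the start site at position -33 and 2 overlapping ones after it at 36 and 41. Together the last 2 make up a longer element of 3 units, GAANNTTCNNGAA, which 0.6027% of the RefSeq windows hold on either strand.

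Hsp90aa1, the inducible cytosolic Hsp90, on chromosome 12 at 110690605 to 110702728 on the minus strand, was called higher in 3 lymphoid cell types. In alpha-beta T cells it was 222 and 218 CPM at 30 °C against 265 and 299 CPM in the cold (0.31, SE 0.07, edgeR adjusted p = 0.0324). ILC2 gave 226 and 223 CPM against 317 and 284 CPM (0.36, SE 0.10, edgeR adjusted p = 0.0348), and B cells 232 and 225 CPM against 270 and 290 CPM (0.18, SE 0.05, edgeR adjusted p = 0.0418). The groups did not overlap in any of these, and all 3 calls were near the threshold. Each was lost in 4 or 5 of the alternatives, including the removal of either 30 °C library and, in ILC2, of the cycling cells. In macrophages the libraries lay between 193 and 231 CPM, with the temperatures interleaved (-0.02, SE 0.12), and in stromal cells the 4 °C libraries were lower, at 201 and 265 CPM against 281 and 419 CPM (-0.60, SE 0.31, edgeR adjusted p = 0.574).

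Hspd1 and Hspe1 encode Hsp60 and Hsp10, the chaperonin and co-chaperonin of the mitochondrial matrix. They are neighbors on chromosome 1, Hspd1 at 55077835 to 55088243 on the minus strand and Hspe1 at 55088132 to 55091307 on the plus strand, and are read away from a common promoter. Hspd1 was higher at 4 °C in alpha-beta T cells, with 88.8 and 82.3 CPM at 30 °C against 105 and 122 CPM in the cold (0.36, SE 0.08, edgeR adjusted p = 0.0263), and in ILC2, with 63.2 and 72.2 against 98.1 and 98.8 CPM (0.47, SE 0.13, edgeR adjusted p = 0.0380). These calls were lost in 4 and 6 of the alternatives, the removal of either 30 °C library included. The ILC2 call was also lost without cycling cells, which were 24.1% and 25.9% of ILC2 at 30 °C and 30.1% and 25.9% at 4 °C. Hspe1, the neighbor of Hspd1, was not called in any of the 10 tested cell types by edgeR or DESeq2, and passed in cycling T cells once cells of over 5000 genes were let in (0.36). In alpha-beta T cells Hspe1 was 310 and 315 CPM at 30 °C against 329 and 338 CPM in the cold (0.05, SE 0.06), and in ILC2 328 and 305 CPM against 290 and 310 CPM (-0.14, SE 0.09). The estimates of Hspe1 ran from -0.14 to 0.20 over the 10 cell types and those of Hspd1 from -0.23 to 0.55. The difference between the 2 genes was not tested.

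The Hspe1 promoter, which overlaps the window of the second Hspd1 start site, is shown because 1 of the 2 genes was called and the other was not. The 250 bases before the Hspe1 start site follow, 5′ to 3′ in the direction of Hspe1 (chr1:55087898-55088147, plus strand), with heat shock elements of 2 units in capitals.
Hspe1 upstream: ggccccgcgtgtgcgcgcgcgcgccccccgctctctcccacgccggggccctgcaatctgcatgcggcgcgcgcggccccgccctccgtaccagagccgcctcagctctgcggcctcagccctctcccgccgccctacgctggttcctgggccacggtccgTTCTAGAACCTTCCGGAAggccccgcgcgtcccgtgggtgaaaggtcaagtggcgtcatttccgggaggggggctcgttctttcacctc
Overlapping elements begin at -89, -84 and -79 from the Hspe1 start site and form 2 elements of 3 units. The window of the second Hspd1 start site shares 285 bases with that of Hspe1 and holds the same number, 3, of elements. That of the first Hspd1 start site shares only 4 bases with it and holds no such element.

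**Figure D3:**
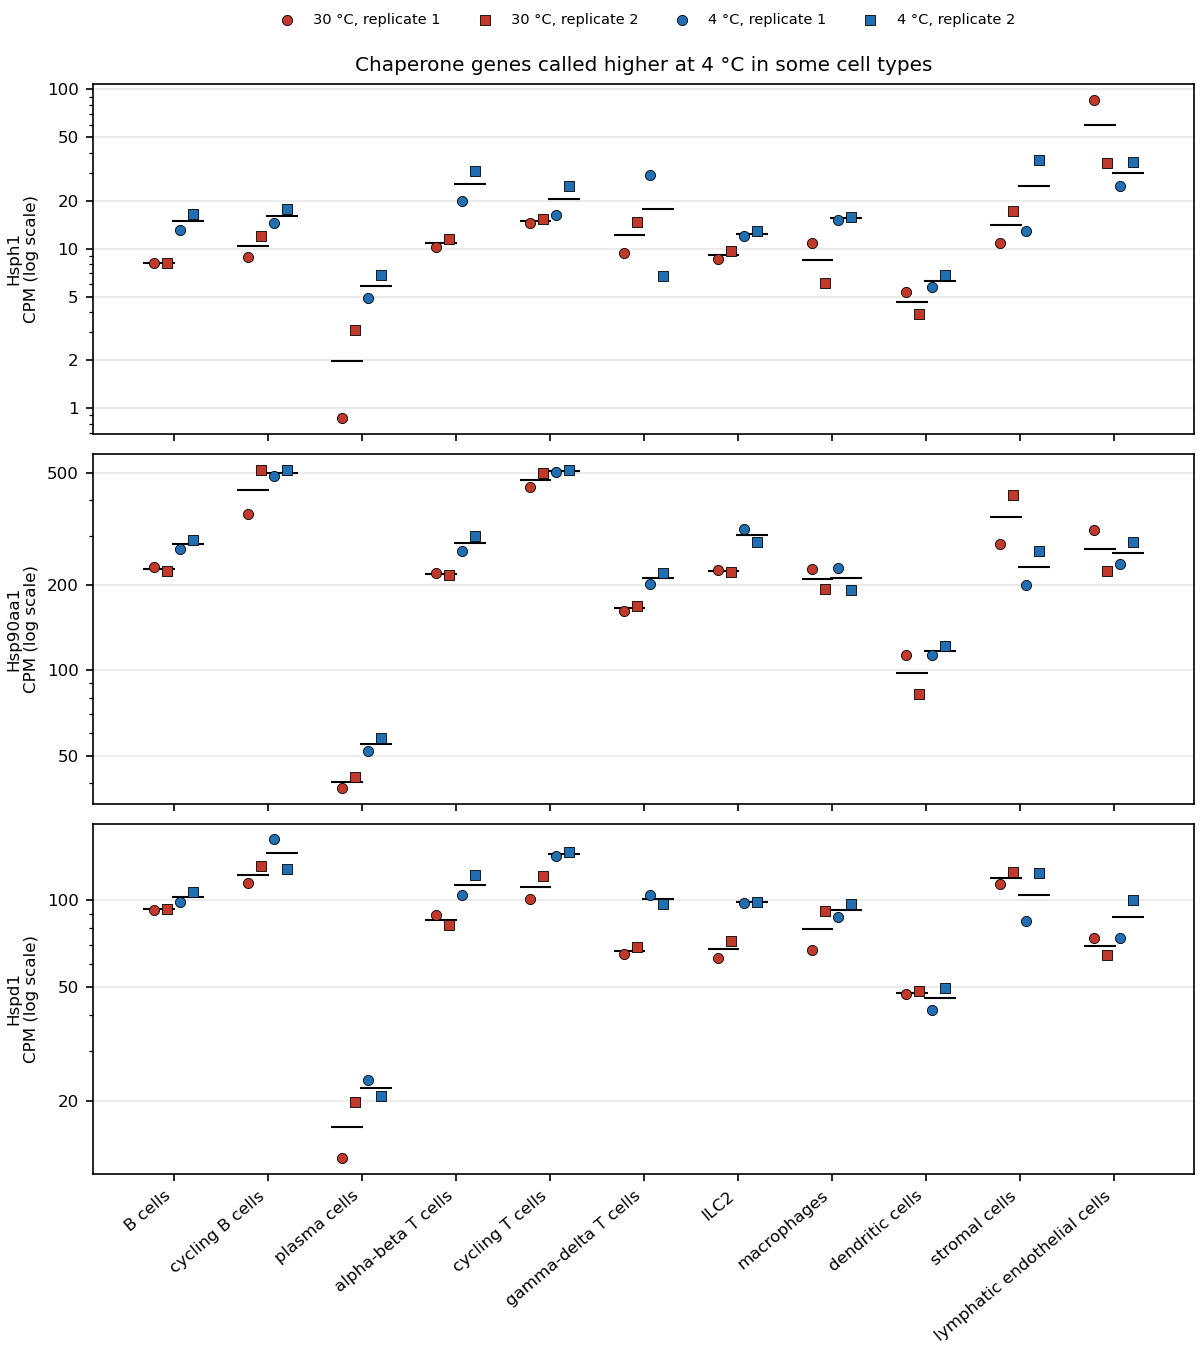
Hsph1, Hsp90aa1 and Hspd1 (top to bottom) in CPM on log axes in each of 11 cell types, with 1 point per library, red for 30 °C and blue for 4 °C, circles for replicate 1 and squares for replicate 2, and short bars for group means. In alpha-beta T cells both blue points are above both red points in each panel, at 20.0 and 30.7 against 10.3 and 11.5 for Hsph1, while in dendritic cells Hspd1 overlaps between temperatures.

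Hspa8, the constitutive Hsp70 of the cytosol, on chromosome 9 at 40800984 to 40810087 on the plus strand, was not called in any of the 10 tested cell types by edgeR or DESeq2. In alpha-beta T cells it was 854 and 876 CPM at 30 °C against 951 and 1011 CPM in the cold (0.13, SE 0.05, edgeR adjusted p = 0.159). In B cells it was 706 and 707 CPM against 743 and 786 CPM, and although the groups did not overlap in CPM, the TMM-scaled change was 0.01 (SE 0.04). Over the 10 cell types its estimates ran from -0.37 in stromal cells to 0.34 in dendritic cells. Dnajb1, an Hsp40 co-chaperone that brings clients to Hsp70 and a standard target of heat shock factor 1, on chromosome 8 at 83608193 to 83612653 on the plus strand, gave no call in the 9 cell types tested. It stood at 25.0 and 26.7 CPM at 30 °C against 27.5 and 29.6 CPM in the cold in B cells (0.04, SE 0.07), and at 42.8 and 45.5 against 37.6 and 50.5 CPM in macrophages (-0.10, SE 0.18). The range of its estimates was -0.17 to 0.45. Of the 2 genes, Hspa8 passed the threshold in alternative fits, in alpha-beta T cells with the replicate number as a block (edgeR adjusted p = 0.0452) and in cycling T cells once cells of over 5000 genes were let in (0.37).

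Hspa1a and Hspa1b, the heat-inducible Hsp70 genes, differed between the replicate libraries at 4 °C in lymphocytes and dendritic cells. They lie on the minus strand of chromosome 17, Hspa1a at 34969190 to 34972156 and Hspa1b at 34956436 to 34959238, and are near-identical copies, so that the division of reads between them is uncertain. Hspa1a in alpha-beta T cells was 10.4 and 15.7 CPM at 30 °C but 5.05 and 20.8 CPM in replicates 1 and 2 at 4 °C. The lowest and the highest library were thus both cold, and the log2 fold change of -0.07 (SE 0.46) became 0.61 without replicate 1 at 4 °C (edgeR adjusted p = 0.0362) and -1.42 without replicate 2 (edgeR adjusted p = 6.09e-05). B cells had the same order, with Hspa1a at 3.60 and 6.88 CPM against 3.24 and 12.3 CPM (0.52, SE 0.48), and Hspa1b at 11.9 and 18.0 CPM against 7.22 and 26.4 CPM (0.11, SE 0.43). There Hspa1b went to 0.71 without replicate 1 at 4 °C (edgeR adjusted p = 0.0441) and to -1.14 without replicate 2 (edgeR adjusted p = 0.0241). The alpha-beta T cells behaved likewise for Hspa1b, with -0.23 over the 4 libraries, 0.41 without replicate 1 (edgeR adjusted p = 0.0281) and -1.44 without replicate 2 (edgeR adjusted p = 8.30e-08) at 4 °C. Without replicate 2 at 4 °C the pair was also called lower in cycling T cells (-1.65 for Hspa1a, -1.40 for Hspa1b), dendritic cells (-2.11 and -2.93) and ILC2 (-1.53 and -1.08). Without replicate 1 at 4 °C, Hspa1a was called higher in B cells (1.12, edgeR adjusted p = 0.0288) and Hspa1b in gamma-delta T cells (1.16, edgeR adjusted p = 0.00565), where Hspa1b was -0.23 without replicate 2. In dendritic cells Hspa1a was 146 and 78.4 CPM at 30 °C against 27.2 and 105 CPM in replicates 1 and 2 at 4 °C. Hspa1b was 191 and 133 CPM there against 22.2 and 164 CPM. The stromal replicates parted at both temperatures, with Hspa1b at 211 and 479 CPM against 264 and 591 CPM. Replicate 1 was the lower of the 2 libraries at 4 °C for both genes in each of the 10 tested cell types, and at 30 °C replicate 1 was the lower for Hspa1a in 9 of them.

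In macrophages the 4 libraries were close, with Hspa1a at 235 and 296 CPM at 30 °C against 262 and 265 CPM in the cold (-0.06, SE 0.12), and Hspa1b at 227 and 282 CPM against 249 and 258 CPM (-0.05, SE 0.12). The temperatures interleaved for both genes. The 1 call was Hspa1b in ILC2, lower at 4 °C, with 27.3 and 34.7 CPM at 30 °C against 15.1 and 18.2 CPM in the cold (-0.98, SE 0.21, edgeR adjusted p = 0.0109). The sum of both genes was called there too (-0.97, edgeR adjusted p = 0.0138), but Hspa1b was not with DESeq2, once cells of over 5000 genes were let in, without cycling cells or without replicate 2 at 30 °C. In gamma-delta T cells Hspa1a was higher at 4 °C, at 22.5 and 40.3 CPM against 10.4 and 11.3 CPM, without a call (1.29, SE 0.42, edgeR adjusted p = 0.120). Lymphatic endothelial cells had the widest gap for Hspa1b, 303 and 316 CPM at 30 °C against 41.2 and 39.3 CPM at 4 °C, from 148, 83, 5 and 9 UMIs in 43, 24, 12 and 18 cells, which was not tested.

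The Hspa1a promoter is shown because its window and that of Hspa1b are identical at 296 of 300 positions. The 250 bases before the Hspa1a start site follow, 5′ to 3′ (chr17:34972157-34972406, minus strand), with the heat shock element of 2 units in capitals.
Hspa1a upstream: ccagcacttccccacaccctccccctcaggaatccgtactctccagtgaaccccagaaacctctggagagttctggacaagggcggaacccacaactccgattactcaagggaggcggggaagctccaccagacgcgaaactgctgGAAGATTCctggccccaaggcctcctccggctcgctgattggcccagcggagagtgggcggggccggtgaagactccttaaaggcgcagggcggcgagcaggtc
Both genes hold 1 such element, 104 bases before the start site. Both also hold the octamer TCCCCGCC of the Cirbp promoter, 137 bases before it, but on the opposite strand. It reads ggcgggga in the sequence above and is not in capitals.

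**Figure D4:**
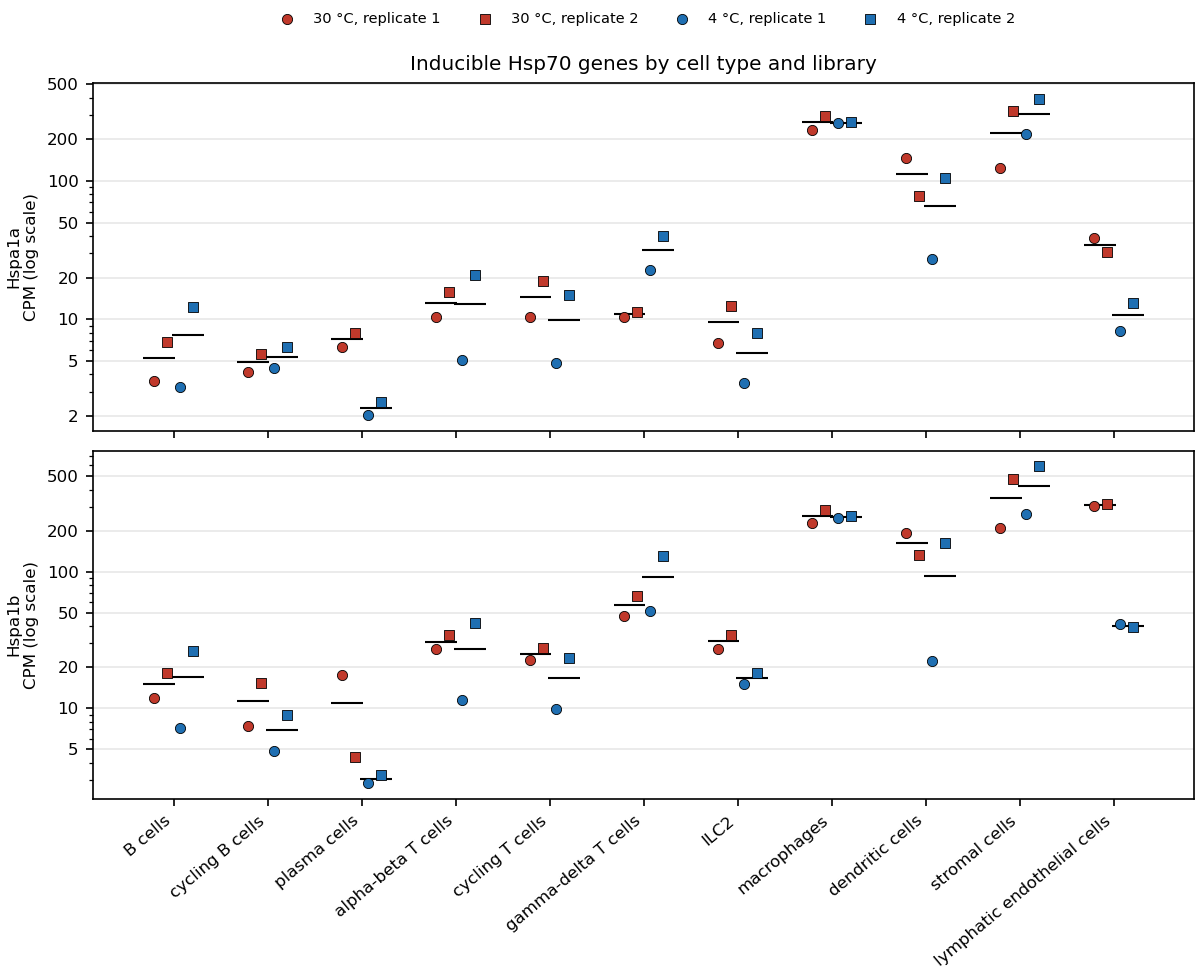
Hspa1a (top) and Hspa1b (bottom) in CPM on log axes in each of 11 cell types, with 1 point per library, red for 30 °C and blue for 4 °C, circles for replicate 1 and squares for replicate 2, and short bars for group means. In B and alpha-beta T cells the 2 blue points enclose the red ones, while in macrophages the 4 points lie between 235 and 296 for Hspa1a and between 227 and 282 for Hspa1b.

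Whether the changes differed between cell types was tested in 3 pairs, as the difference of 2 log2 fold changes in 1 model. None of the 10 genes was called between macrophages and B cells (6.27% of all genes were), between macrophages and alpha-beta T cells (4.89%) or between B cells and alpha-beta T cells (1.91%). The fall of Cirbp was smaller in macrophages than in B cells by 0.26 (SE 0.14, edgeR adjusted p = 0.4004), and that of Rbm3 was larger by 0.18 (SE 0.10, edgeR adjusted p = 0.362). Cirbp differed by 0.01 (SE 0.07) between B and alpha-beta T cells. The lowest adjusted p, 0.0949, belonged to Hspd1, whose change was 0.32 (SE 0.08) greater in alpha-beta T cells than in B cells. Of all genes tested, these 10 included, 2193, 2075 and 1424 had an unadjusted edgeR p below 0.05 in the 3 pairs.

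The 10 genes also differed in level between cell types. All 10 were called in the edgeR test of any difference across the 10 cell types, as were 98.1% of all genes. Values below are log2 differences of a cell type from the mean of the other 9, scaled by TMM, and no levels of different genes are compared. Hspa1a was highest in macrophages (3.76, SE 0.17) and stromal cells (3.59, SE 0.28), which did not differ beyond their errors, and then in dendritic cells (2.27, SE 0.25). Hspa1b followed, with 3.14 in stromal cells, 2.68 in macrophages and 1.73 in dendritic cells. Both were lowest in cycling B cells (-2.35 and -2.41). In CPM, Hspa1a ranged from 235 to 296 in macrophages but from 3.24 to 12.3 in B cells.

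Cirbp had its highest level in B cells (0.52, SE 0.08) and then in dendritic cells (0.44, SE 0.09), neighbors that overlap within their errors, and its lowest in stromal cells (-0.96, SE 0.14) and macrophages (-0.95, SE 0.10). Rbm3 was lowest in the same pair, at -1.66 in stromal cells and -1.18 in macrophages, and highest in cycling B cells (1.04, SE 0.06) and cycling T cells (0.99, SE 0.06). Hsp90aa1 shared these maxima, at 1.21 in cycling B and 1.12 in cycling T cells, and Hspd1 peaked in cycling B cells (0.83). Hspe1 was highest in B cells (0.99) and cycling B cells (0.87) and lowest in macrophages (-0.98). Hspa8 and Dnajb1 were highest in cycling T cells (0.50 and 0.52), as was Hsph1 (0.51, SE 0.14). In plasma cells the sign depended on scaling. With library totals alone the median gene moved by -1.71 there, Cirbp turned from 0.20 to -1.50, Rbm3 from 0.17 to -1.53 and Dnajb1 from 0.42 to -1.28, and each of the 10 genes was lowest in plasma cells. On that scale Cirbp was highest in alpha-beta T cells (0.58, with 0.41 in B cells) and Hspe1 in cycling B cells (0.90, with 0.88 in B cells).

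**Figure D5:**
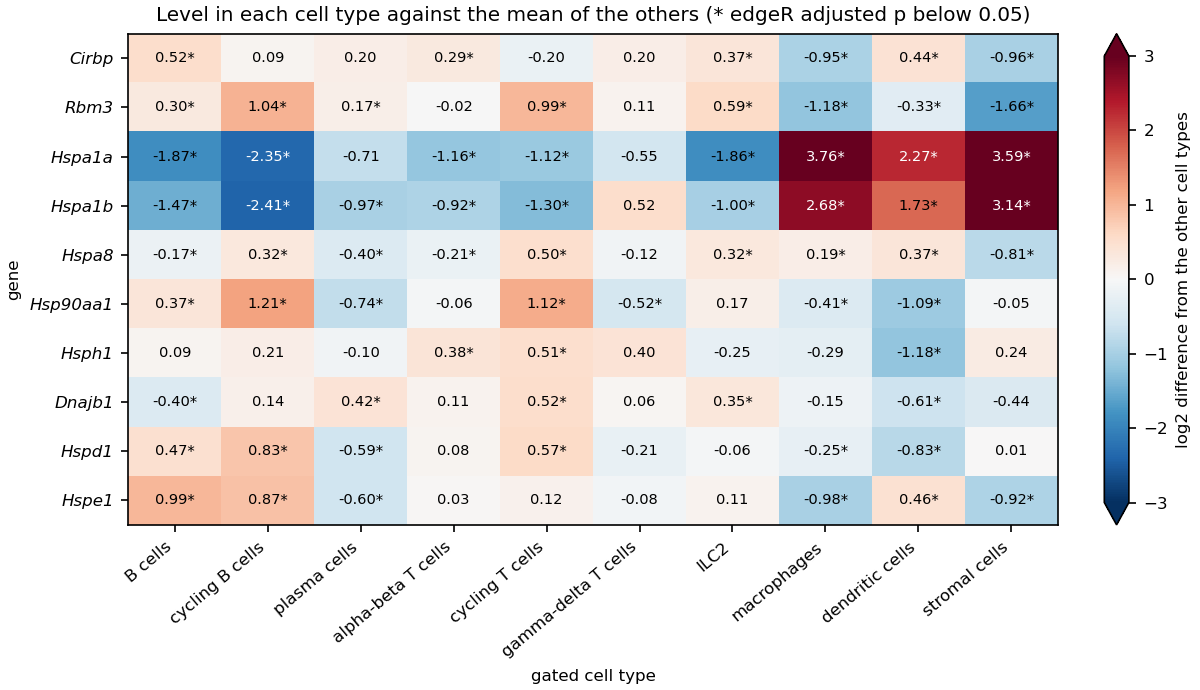
Log2 difference of each gene's level in a cell type (columns) from the mean of the other 9 tested cell types, over both temperatures, with red for higher, blue for lower, colors saturating beyond 3 and an asterisk for an edgeR adjusted p below 0.05. Hspa1a and Hspa1b stand out in macrophages (3.76 and 2.68), dendritic cells (2.27 and 1.73) and stromal cells (3.59 and 3.14), and Rbm3 and Hsp90aa1 in the 2 cycling types.

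The genes most alike to Cirbp over the 40 sums of library and cell type, by Pearson's r of log2 CPM among 8123 genes, were Pdcd4 (0.85), a translation repressor, Anapc16 (0.84), a subunit of the anaphase-promoting complex, and Eif2s3y (0.80), a subunit of a translation initiation factor. For Rbm3 they were Lsm5 (0.95) of the spliceosome, the RNA helicase Ddx39 (0.95) and the glycolytic enzyme Gapdh (0.95). For Hspa1a they were its copy Hspa1b (0.95), the junction protein Jup (0.94) and App (0.94), the amyloid precursor. These r values describe sums that share libraries and carry no test.

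Other chaperone genes were read from lists. Over all genes tested, 757 of 11626 were called higher and 803 lower in B cells. In alpha-beta T cells 357 of 11497 were called higher and 451 lower, and in macrophages 855 of 9578 higher and 790 lower. A single call in a list is near these shares. Of 16 genes for chaperones of the endoplasmic reticulum (ER) and the unfolded protein response, 6 were called higher and 2 lower in B cells, with a median of 0.22, and 5 higher and none lower in alpha-beta T cells, with a median of 0.25. Hspa5, the main ER Hsp70, was 122 and 131 CPM at 30 °C against 198 and 185 CPM in the cold in B cells (0.50, edgeR adjusted p = 0.00110), and it rose by 0.44 in alpha-beta T cells (edgeR adjusted p = 0.00459). Calr, a lectin chaperone, rose in alpha-beta T cells (0.38), and Herpud1, which takes part in ER-associated degradation, fell in B cells (-0.65). None of the 16 was called in macrophages, where the median was -0.06. Whether that differs from the lymphocytes was not tested for the list.

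Of the list of other cytosolic heat shock genes, 5 of 21 tested rose and 1 fell in B cells (median 0.02), 2 rose and 1 fell in alpha-beta T cells (0.11), and 2 of 19 fell in macrophages (-0.04). The Hsp40 gene Dnajb2 rose in B cells (0.50) and alpha-beta T cells (0.67), the Hsp70 relative Hspa2 in B cells (0.63), and the Hsp40 gene Dnaja1 in alpha-beta T cells (0.42). In macrophages Hspa4l, an Hsp110 relative, fell by 0.97 and the ubiquitin gene Ubb fell by 0.63. Among 14 Hsp90 co-chaperones the values were 1 higher and 1 lower in B cells (median 0.13), 3 and 1 in alpha-beta T cells (0.17), and 0 and 1 in macrophages (-0.01).

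Fkbp5, a co-chaperone of steroid receptors and a known target of the glucocorticoid receptor, was the lower one in each. It went from 410 and 417 CPM at 30 °C to 20.1 and 10.95 CPM at 4 °C in macrophages (-4.63, SE 0.17, edgeR adjusted p = 5.80e-08), by -3.12 in B cells and by -1.76 in alpha-beta T cells. Chordc1, which binds Hsp90, rose in B cells (0.39) and alpha-beta T cells (0.47). None of 7 cytosolic chaperonin subunits was called in the 3 cell types (medians 0.00, 0.07 and -0.13). Of 11 mitochondrial chaperones and proteases none was called in B or alpha-beta T cells (0.08 and 0.07), and in macrophages the protease genes Htra2 (0.87) and Lonp1 (-0.70) moved in opposite directions (median -0.08).

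A list of 15 genes for RNA processing linked to cold, mostly SR splicing factors and their kinases, had 3 higher and 1 lower in B cells (median 0.02), 2 and 1 in alpha-beta T cells (0.04), and 0 and 1 in macrophages (-0.03). Srsf7 rose in B cells (0.26) and alpha-beta T cells (0.38), Srsf1 rose in B cells (0.24), Srsf5 fell in alpha-beta T cells (-0.30), and Rbm39 fell in macrophages (-0.40).

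Immediate early genes are raised by many stimuli, tissue digestion among them. Of 14 such genes, 1 rose and 1 fell in B cells (median 0.03), 3 rose and 1 fell in alpha-beta T cells (0.24), and 5 rose and 1 fell in macrophages (0.38). Among all genes tested in macrophages, 855 of 9578 were called higher and 790 lower. Nr4a1 rose in B cells (0.98) and alpha-beta T cells (0.74), Jund in alpha-beta T cells (0.41), and Atf3 (1.50) and Ier3 (0.77) in macrophages, while Dusp1 fell in B cells (-0.90). Their summed level in alpha-beta T cells was 3542 and 3816 CPM at 30 °C against 4479 and 4267 CPM in the cold, and in B cells 2111 and 2118 against 2311 and 2407 CPM. In cycling T cells the sums were 1941 and 1911 against 2602 and 2501 CPM. The macrophage sums overlapped, at 12907 and 16353 against 17328 and 16259 CPM. CPM is scaled by totals alone, on which the median gene in B cells rose by 0.10. The median share of mitochondrial UMIs in B cells was 5.91% and 5.74% at 30 °C and 5.41% and 5.33% at 4 °C. In cycling T cells the gamma-delta markers fell from 1068 and 1304 CPM to 194 and 152 CPM. The part of these in the changes of the 10 genes was not tested.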

How the data were processed

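Single-cell RNA was measured in 4 libraries (10x Genomics 3′ chemistry), 2 per temperature, from sorted ChAT-eGFP+ cells. The deposited matrices hold raw UMI counts per gene and cell, which the authors produced with Cell Ranger (3.0.0 in the matrix headers, 3.1.0 in the submitters' processing notes) on mm10, without normalization. The authors' clustering was not used here.

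Cells with at least 100 genes were read in (a gene had to occur in at least 10 cells), and those were kept whose gene number lay between 200 and 5000 and whose mitochondrial share was below 7.5%. A cell was given the lineage of which it held UMIs of at least 3 of 6 markers and at least 1 more than of any other lineage. Gamma-delta T cells, and cycling B and T cells, needed at least 2 of their own markers. This rule was set with the files at hand, without the 10 genes. No doublet caller was run. The 453 cells tied between lineages and the 711 below the minimum were left out. UMIs of a cell type were added up within each library and tested where each library held at least 20 cells, with edgeR 4.0.16 (TMM, filterByExpr, quasi-likelihood test, Benjamini-Hochberg adjustment over all genes tested, threshold 0.05) in R 4.3.3. Differences between cell types, and between changes in 2 cell types, were tested in joint fits with the library as a term. With 2 libraries against 2 an exact permutation test cannot go below p = 0.333, so p-values rest on the spread that edgeR shares across genes, and they measure the spread between these libraries. The kept libraries totalled 53423899 to 54933486 UMIs. On simulated counts for B cells, alpha-beta T cells and macrophages, the edgeR test missed most of the smaller changes put in, fewest in B cells, where its share of false calls was above the threshold.

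The 10 genes and the gene lists were chosen with earlier results of these data known. Beside the 10 genes, the text names, per list and in B cells, alpha-beta T cells and macrophages, the 2 genes of the largest change among those called and moved alike between every cold and every warm library, and the 3 genes most alike to Cirbp, Rbm3 and Hspa1a with a mean of at least 10 CPM. Of 111 list symbols 110 were in the matrices. Positions are from GENCODE M21 (GRCm38) and promoters from RefSeq (GRCm38.p6), which gave windows for 7 of the 10 genes. Alternatives were DESeq2 1.42.0, other scaling, no filter on low counts, a mitochondrial share of up to 15%, cells of over 5000 genes let in, a gate of 2 markers, a replicate block, Hspa1a and Hspa1b summed and each library left out, and, chosen after seeing the data, ILC2 and macrophages without cycling cells. Python 3.11.15 was used with pandas 2.3.3 and matplotlib 3.10.9.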

Additional observations from a re-analysis of the deposited data

Results flagged for a closer look

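In 3 genes both cold libraries lay above both warm ones in 1 cell type and below them in another, with estimates of opposite sign. The difference was not tested in any of them, and none of the single changes passed the threshold in the cell types compared here. The share of all genes that did so in some pair of cell types was not computed. In B cells alone, 45.1% of all genes tested lay above and 16.2% below. The cell types compared are the extremes for each gene. Hspa1a had a log2 fold change of 1.29 in gamma-delta T cells and of -1.64 in plasma cells, a difference of 2.93. The plasma cell value rests on 22 and 18 UMIs at 30 °C against 5 and 7 at 4 °C. Hspa1a passed the filter on low counts there only through the 30 °C libraries, which favored a negative sign, so the opposite signs carry no weight. Hspa8 was at 0.34 in dendritic cells and at -0.37 in stromal cells, a difference of 0.71. With an estimate of the same sign, its cold libraries lay above in 5 cell types and below in 2. Hsp90aa1 was at 0.43 in plasma cells and at -0.60 in stromal cells, a difference of 1.04. Its cold libraries lay above, with a positive estimate, in 6 cell types, and below, with a negative one, in 1. The stromal sums rest on 27 to 42 cells per library.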

How the results depend on the processing

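Over 97 pairs of gene and cell type, the 21 calls kept their sign under every setting run, and 7 of them stayed called under each. Outside the removal of a library, the number of the 10 genes called moved by over 1.5 times in these fits. In cycling B cells it went from 0 to 1 with DESeq2, with no filter on low counts, with cells of over 5000 genes and with the replicate block. With no filter on low counts it was 3 rather than 0 in plasma cells, 1 rather than 5 in alpha-beta T cells and 3 rather than 1 in dendritic cells, and 1 rather than 0 for the difference between B and alpha-beta T cells. In cycling T cells it was 6 with cells of over 5000 genes and 5 with the replicate block, against 2. In ILC2 it was 1 with DESeq2 and 2 without cycling cells, against 5, and in dendritic cells 2 with DESeq2. With 1 library left out it ranged from 2 to 6 in B cells, 0 to 3 in cycling B cells, 0 to 1 in plasma cells, 1 to 7 in alpha-beta T cells, 3 to 4 in cycling T cells, 1 to 3 in gamma-delta T cells, 1 to 6 in ILC2, 0 to 2 in macrophages and 0 to 3 in dendritic cells. For the differences of change it ranged from 0 to 2 (macrophages against B cells), 0 to 2 (macrophages against alpha-beta T cells) and 0 to 1. The sign turned, with a call, for Hspa1b in B cells (-1.14 to 0.71 with 1 library left out), Hspa1a in alpha-beta T cells (-1.42 to 0.61) and Hspa1b in alpha-beta T cells (-1.44 to 0.41). The causes were not tested. Where a library is left out, the lone library of its temperature is assumed to vary like the other pair.

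Calls over all genes, outside the removal of a library, ranged from 814 (DESeq2) to 2456 (replicate block) in B cells against 1560, from 134 (no filter) to 1526 (replicate block) in alpha-beta T cells against 808, and from 765 (DESeq2) to 1824 in macrophages against 1645, where none remained without either library at 4 °C. They ranged from 376 to 1163 in cycling T cells (806), 195 to 1425 in ILC2 (601), 79 to 359 in gamma-delta T cells (218), 111 to 479 in dendritic cells (148), 11 to 398 in plasma cells (44), 6 to 167 in stromal cells (16) and 0 to 159 in cycling B cells (0). With 1 library left out, these counts, on which the shares of all genes called rest, ranged from 437 to 1162 in B cells, 51 to 980 in alpha-beta T cells, 0 to 1624 in macrophages, 595 to 1258 in cycling T cells, 410 to 915 in ILC2, 100 to 448 in gamma-delta T cells, 33 to 345 in dendritic cells, 48 to 153 in plasma cells, 17 to 133 in stromal cells and 3 to 647 in cycling B cells. With totals alone as the scale, B cell calls split into 1842 higher and 484 lower, against 757 and 803. Replicate numbers are shared by the temperatures, but nothing in the labels pairs the samples. Same-numbered libraries correlated in their deviations by -0.08 to 0.27 over the cell types, with 0.27 in B cells and 0.18 in cycling B cells. The main fits used no pairing, and whether same-numbered libraries share an effect was not tested. Low counts limited Hsph1, which could not be tested in dendritic and stromal cells, and Dnajb1 in stromal cells.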

Other observations

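Some genes of the lists were called in opposite directions in different cell types, a pattern picked after their values were seen and not tested as a difference. Hspa4l, an Hsp110 relative, was 7.66 and 11.1 CPM at 30 °C against 21.3 and 22.2 CPM in the cold in ILC2, a rise of 1.14 (SE 0.26, edgeR adjusted p = 0.0145), while in macrophages it fell from 40.8 and 44.4 CPM to 23.2 and 20.7 CPM (-0.97, SE 0.17, edgeR adjusted p = 0.00277). Hsp90b1, the Hsp90 of the endoplasmic reticulum, rose in gamma-delta T cells, from 402 and 320 CPM to 530 and 507 CPM (0.48, SE 0.13, edgeR adjusted p = 0.0475). In cycling T cells it fell from 538 and 526 CPM to 416 and 446 CPM (-0.40, SE 0.08, edgeR adjusted p = 0.0119). Pdia6, a disulfide isomerase of the same compartment, and Sdf2l1 fell there as well (-0.40 and -0.43) and rose in B cells (0.22 and 0.45). Of the 16 genes for chaperones of the endoplasmic reticulum and the unfolded protein response, 1 rose and 4 fell in cycling T cells (median -0.06), whereas 5 rose and none fell in gamma-delta T cells (median 0.50). Over all genes tested, 373 of 10608 were called higher and 433 lower in cycling T cells. In gamma-delta T cells 98 of 7451 were called higher and 120 lower. Gamma-delta markers in the cycling T cells were 1068 and 1304 CPM at 30 °C against 194 and 152 CPM in the cold, and their part in these values was not tested.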
